A study of Mus musculus with 2 samples.

Results

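The nuclear genes of respiratory chain complexes I, II and III were examined in DNase-seq data of MN1, a mouse line that the labels call immortalized and of strain B6NCrl. They were chosen by symbol: every GENCODE M21 protein-coding nuclear gene whose symbol starts with Nduf, Uqcr, or Sdh followed by a to d or af. The rule found 62 of 21911 genes: 7 core subunits, 29 accessory subunits and 8 assembly factors of complex I, 4 subunits and 4 assembly factors of complex II, and 8 subunits of complex III. The remaining 2 carry a complex I name only: Ndufa4 encodes a subunit of complex IV, and Ndufa4l2 is its paralog. The series holds 1 group of 2 biological replicates with 1 library each, and no second condition. The labels list no treatment, tissue, age or sex, and trace both cultures to the same donor entry. They name sequencing instruments for replicate 2 only. Of the neuronal markers looked at, 7 of 7 had a promoter peak in both libraries, against 0 of 4 muscle, 0 of 3 blood and 0 of 2 epithelial markers, 1 of 3 glial and 2 of 3 fibroblast markers. Over all genes the share was 59.2%. By promoter CpG observed/expected ratio, the neuronal markers lie in deciles 4 to 8 (42.6% to 88.1% of all genes). The muscle and blood markers lie in deciles 2 to 5 (18.9% to 60.5%), and the others in deciles 2 to 9. The part of CpG content in this contrast was not tested.

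DNase I cuts DNA that is not wrapped tightly in nucleosomes, so a peak marks accessible chromatin. It does not measure transcription. Complex I passes electrons from NADH and complex II from succinate to ubiquinone, and complex III passes them on to cytochrome c. Complexes I and III pump protons across the inner mitochondrial membrane, and complex II does not. Their nuclear genes are expressed in nearly all cell types, and the factors NRF1, GABP of the ETS family, YY1, SP1 and the estrogen-related receptors (ERR) are known regulators of many of them.

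Replicate 1 had 170600 distinct peaks and replicate 2 had 162983, and their read depth is unknown. Peaks were 150 bp wide, apart from 1 in each list, and carried a score from 1 to 150 with no stated scale, so scores were turned into percentiles within each list, where a percentile of 95 would mean that about 95% of the peaks scored lower. Peaks touching the 1 kb on either side of any annotated start site of a gene were called promoter peaks, and those outside all such regions distal. Genes are not replicates and only 1 group was sampled, so counts over the 62 genes are set beside the same counts over all genes, with no test.

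Stretches of promoter peaks, 1 for each role, show what kind of sequence was open. For each role, the member with the highest mean percentile is shown among those whose best peak shared by both libraries held a motif match outside annotated untranslated regions. Only the part of the peak outside those regions is printed, on the gene's strand, from GRCm38 (mm10). Capitals mark motif letters, in either orientation: CCAAT in Ndufs8, Ndufa6 and Ndufaf8, GGGGCGG (SP and KLF factors) in Sdhc and Sdhaf3, CCGGAAG (ETS factors) in Sdhaf3 and Ndufa4l2, and CACGTG (the E-box) in Ndufa4l2 and Uqcrq.
Ndufs8, chr19:3912816-3912965, minus strand: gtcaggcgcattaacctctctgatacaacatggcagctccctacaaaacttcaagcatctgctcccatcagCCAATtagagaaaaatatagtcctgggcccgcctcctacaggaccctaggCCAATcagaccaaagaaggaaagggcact
Ndufa6, chr15:82354323-82354425, minus strand: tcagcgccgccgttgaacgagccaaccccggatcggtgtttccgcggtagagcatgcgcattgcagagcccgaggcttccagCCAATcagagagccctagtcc
Ndufaf8, chr11:120098836-120098927, plus strand: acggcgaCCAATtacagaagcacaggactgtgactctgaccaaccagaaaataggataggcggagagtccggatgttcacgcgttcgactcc
Ndufa4l2, chr10:127515696-127515845, plus strand: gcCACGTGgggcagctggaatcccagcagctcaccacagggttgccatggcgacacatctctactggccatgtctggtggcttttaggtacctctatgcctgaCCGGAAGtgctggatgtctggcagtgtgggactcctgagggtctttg
Sdhc, chr1:171150604-171150685, minus strand: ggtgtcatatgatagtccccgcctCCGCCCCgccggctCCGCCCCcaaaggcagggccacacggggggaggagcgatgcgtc
Sdhaf3, chr6:6955856-6956003, plus strand: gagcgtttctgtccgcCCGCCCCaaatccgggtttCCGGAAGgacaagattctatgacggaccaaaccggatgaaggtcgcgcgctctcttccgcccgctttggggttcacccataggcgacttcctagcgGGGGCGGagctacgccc
Uqcrq, chr11:53430876-53431025, minus strand: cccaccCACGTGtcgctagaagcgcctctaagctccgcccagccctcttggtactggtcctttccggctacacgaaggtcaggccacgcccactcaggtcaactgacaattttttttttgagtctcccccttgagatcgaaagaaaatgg
No motif is common to the 7 stretches. Ndufs8 has a pair of CCAAT boxes upstream of its start site, Sdhc and Sdhaf3 each have a pair of GGGGCGG matches, and Uqcrq has a lone E-box.

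All 62 members had a promoter peak in both libraries, and all 62 had a promoter hotspot, a wider region of enriched cutting, in both. The share over all genes was 59.2%. The members' promoters were mostly rich in CpG, which goes with open promoters: 44 of 62 fell in deciles 6 to 8 of the CpG observed/expected ratio and 14 in deciles 9 and 10. Among all genes the share with a peak in both libraries was 7.85% in decile 1, 91.9% in decile 10 and 90.4% over deciles 8 to 10, which held 29 members. The 4 members in deciles 1 to 5, among them Ndufa3, Ndufa4l2 and Sdhaf1, also had a peak in each library. With only peaks above the median score of each list, the count was again 62 of 62, against 55.8% of all genes.

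**Figure D1:**
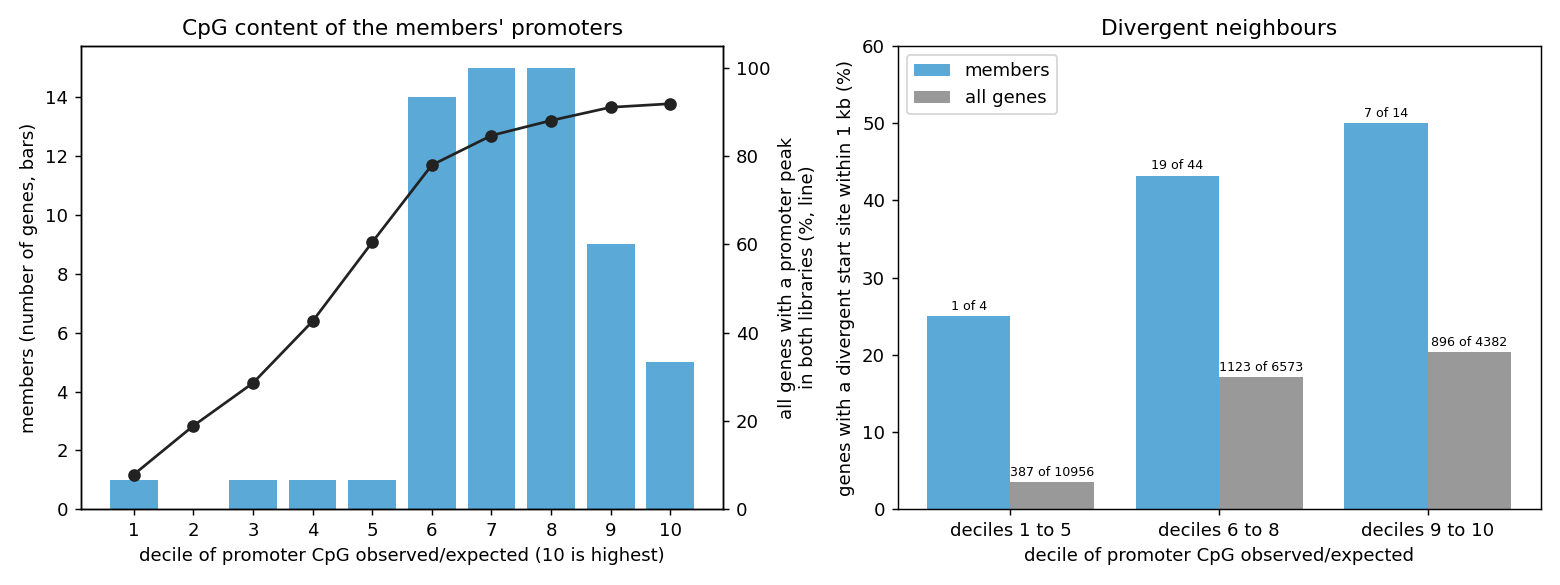
CpG content and divergent neighbours of the 62 genes. Left, bars count the members in each decile of promoter CpG observed/expected ratio, and the line gives the percentage of all genes in that decile with a promoter peak in both libraries; 44 members fall in deciles 6 to 8. Right, bars give the percentage of genes with a divergent start site of another gene within 1 kb, for members and all genes, by CpG decile, with counts above the bars.

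The best promoter peak of most members was strong, with a median close to that of all open genes. Its median percentile over the members was 96.3 in replicate 1 and 95.5 in replicate 2, against 95.5 and 95.3 over the 12973 genes with a promoter peak in both. It was in the top 10% of scores in both libraries at 52 of 62 members (83.9%), against 70.2% of those genes. The top 1% in both libraries held 3 members (4.84%), against 8.49%. The central 50% of members lay between mean percentiles of 93.25 and 97.73, against 89.54 and 97.98 of those genes.

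The 7 core subunits of complex I carry the flavin, the iron-sulfur clusters or the quinone site. All 7 were above the 92nd percentile in both libraries. Ndufv2, an iron-sulfur subunit of the NADH-oxidizing module, was highest, with scores of 145 and 146 in replicates 1 and 2 (percentiles 99.5 and 99.8). Ndufs7, which holds the cluster nearest to ubiquinone, was lowest, with 128 and 117 (95.2 and 92.9). Ndufs1, Ndufs3, Ndufs8 and Ndufv1 scored 129 to 135 in replicate 1 and 125 to 136 in replicate 2.

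The 29 accessory subunits surround the core and differ more among themselves. Ndufa6, which anchors the acyl carrier protein Ndufab1 to the complex, scored 150 in replicate 1, the ceiling of the score, and 140 in replicate 2 (percentiles 99.99 and 98.7). Ndufa1, an X-linked membrane subunit, was lowest with 96 and 97 (84.4 and 86.9). Ndufb11, the other X-linked accessory subunit, had the next lowest mean, with 106 and 99 (88.5 and 87.5). Both X-linked members therefore lay below every other accessory subunit on the mean of the libraries. The labels give no sex for the line, and the part of X linkage in these scores was not tested.

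Assembly factors of complex I build the enzyme and are absent from the finished complex. Ndufaf8, which acts with Ndufaf5, scored 146 and 144 (99.7 and 99.5). Ndufaf1, a factor for the membrane arm, scored 108 in replicate 1 and 61 in replicate 2 (89.3 and 69.5). Between the best peaks of the libraries, this was the largest gap of any member, at 19.8 points. The Ndufaf1 peak stood 44 bp upstream of the start site in both. Ndufaf4 was higher in replicate 2, with 110 and 120 (89.9 and 93.6). The other 5 scored 115 to 144 in replicate 1 and 103 to 140 in replicate 2.

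Complex II was open at all 4 subunit genes. Sdhb, the iron-sulfur subunit, had the highest mean percentile of all members, with a score of 148 in each library (99.9 and 99.9). Sdha, the flavin subunit that oxidizes succinate, was lowest of the 4 with 132 and 125 (96.3 and 94.8). Among its assembly factors, Sdhaf3, which helps to mature the iron-sulfur subunit, scored 142 and 128 (98.8 and 95.6). Sdhaf1, which serves the same subunit, was the lowest of all members with 60 and 53 (61.7 and 63.7). The membrane anchors Sdhc and Sdhd lay between Sdhb and Sdha.

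In complex III the mean percentiles ran from 91.96 to 98.91. Uqcrq, a small subunit, was highest with 140 and 144 (98.3 and 99.5), and Uqcr11, another small subunit, was lowest with 117 and 113 (92.2 and 91.8). All 8 genes, among them those of the Rieske protein (Uqcrfs1) and the large core proteins (Uqcrc1, Uqcrc2), were in the top 10% in both libraries. Ndufa4, the complex IV subunit, scored 138 in each library (97.8 and 98.1). Its paralog Ndufa4l2, known for its induction by low oxygen, scored 63 and 72 (64.2 and 76.0), below it in each library.

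**Figure D2:**
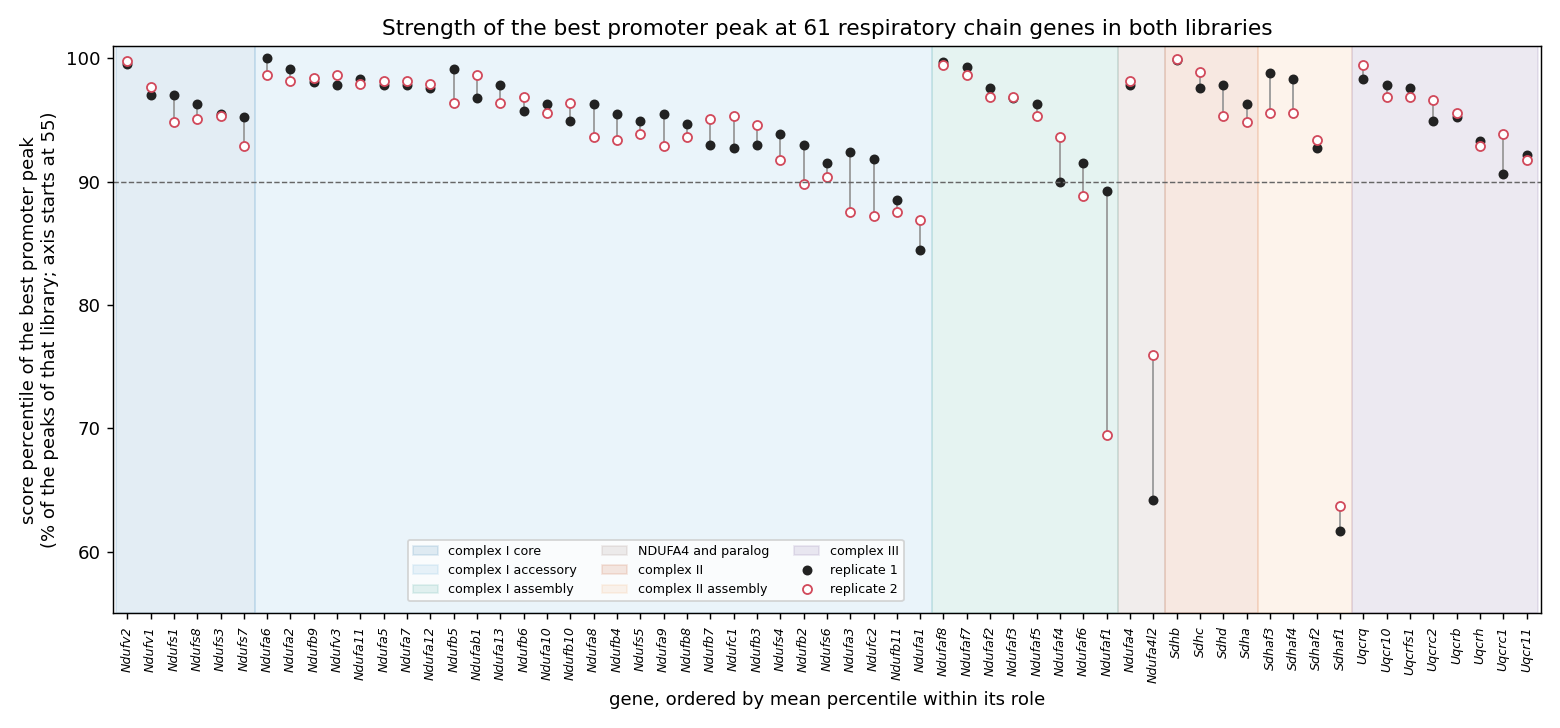
Score percentile of the best promoter peak of 61 members, grouped by role, with 1 filled point for replicate 1 and 1 open point for replicate 2. The dashed line is the 90th percentile, and Ndufaf1, Ndufa4l2 and Sdhaf1 are the members with a value below 80.

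The libraries placed most members alike. The percentiles were within 3 points of each other at 54 of 62 members, and Spearman's rho between the libraries was 0.866 over the members and 0.904 over the 12973 genes, as a description over genes that share their libraries. Between best peaks, the widest gap after Ndufaf1 was at Ndufa4l2, 11.7 points higher in replicate 2. Then came Ndufa3 (92.4 and 87.5) and Ndufc2 (91.9 and 87.2), both accessory subunits, and Ndufaf4. At Ndufa4l2 the best peaks were different sites, 804 bp downstream of the start in replicate 1 and 76 bp upstream in replicate 2. The Ndufa4l2 peak 76 bp upstream, found in both libraries, had percentiles of 53.8 and 76.0, further apart than those of Ndufaf1. The percentile was higher in replicate 1 at 36 members (58.1%, against 47.8% of the 12973 genes) and in replicate 2 at 26. With 1 library per replicate, a gap at a gene cannot be set against a spread within a replicate.

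The best peak usually lay over the start site. Its centre was a median of 25.5 bp upstream in replicate 1 and 19 bp upstream in replicate 2, against 37 and 28 bp for all open genes, and within 200 bp of a start site in both libraries at 52 of 62 members (83.9%, against 78.0%). The best peaks of the libraries overlapped at 59 members and did not at Ndufb7, Ndufaf8 and Ndufa4l2. That overlap was not counted over all genes. The Ndufa13 peak lay 887 and 927 bp inside the gene, and is also the best peak of its neighbours Tssk6 and Yjefn3. The Ndufa11 peak lay 716 and 776 bp upstream and is also the best peak of Vmac, a gene on the other strand that starts 82 bp away. A weaker peak (129 and 131; percentiles 95.5 and 96.4) lay at the start of Ndufa11 itself.

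The 2 lowest members depended on which start site was used. For Sdhaf1, RefSeq places the 5′ end 1520 bp downstream of the GENCODE one. A peak scoring 131 and 133 (percentiles 96.0 and 96.9) lay 56 and 36 bp upstream of that RefSeq end, whereas the GENCODE promoter contained only the peak scoring 60 and 53. For Ndufa4l2, RefSeq places the 5′ end 5693 bp upstream of the GENCODE one. There a peak scored 129 in replicate 1, 123 bp upstream of the RefSeq end, and 124 in replicate 2, 63 bp upstream (95.5 and 94.6). Another, 97 bp downstream of that end, scored 119 and 128. By GENCODE the peaks at the RefSeq end of Ndufa4l2 are distal. The one at the RefSeq end of Sdhaf1 is not, since it lies within 1 kb of a start site of another gene, and it was counted for Sdhaf1 neither as a promoter nor as a distal peak. The low percentiles of Sdhaf1 and Ndufa4l2 above hold for the GENCODE starts only. These start sites were looked at after the values were seen.

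**Figure D3:**
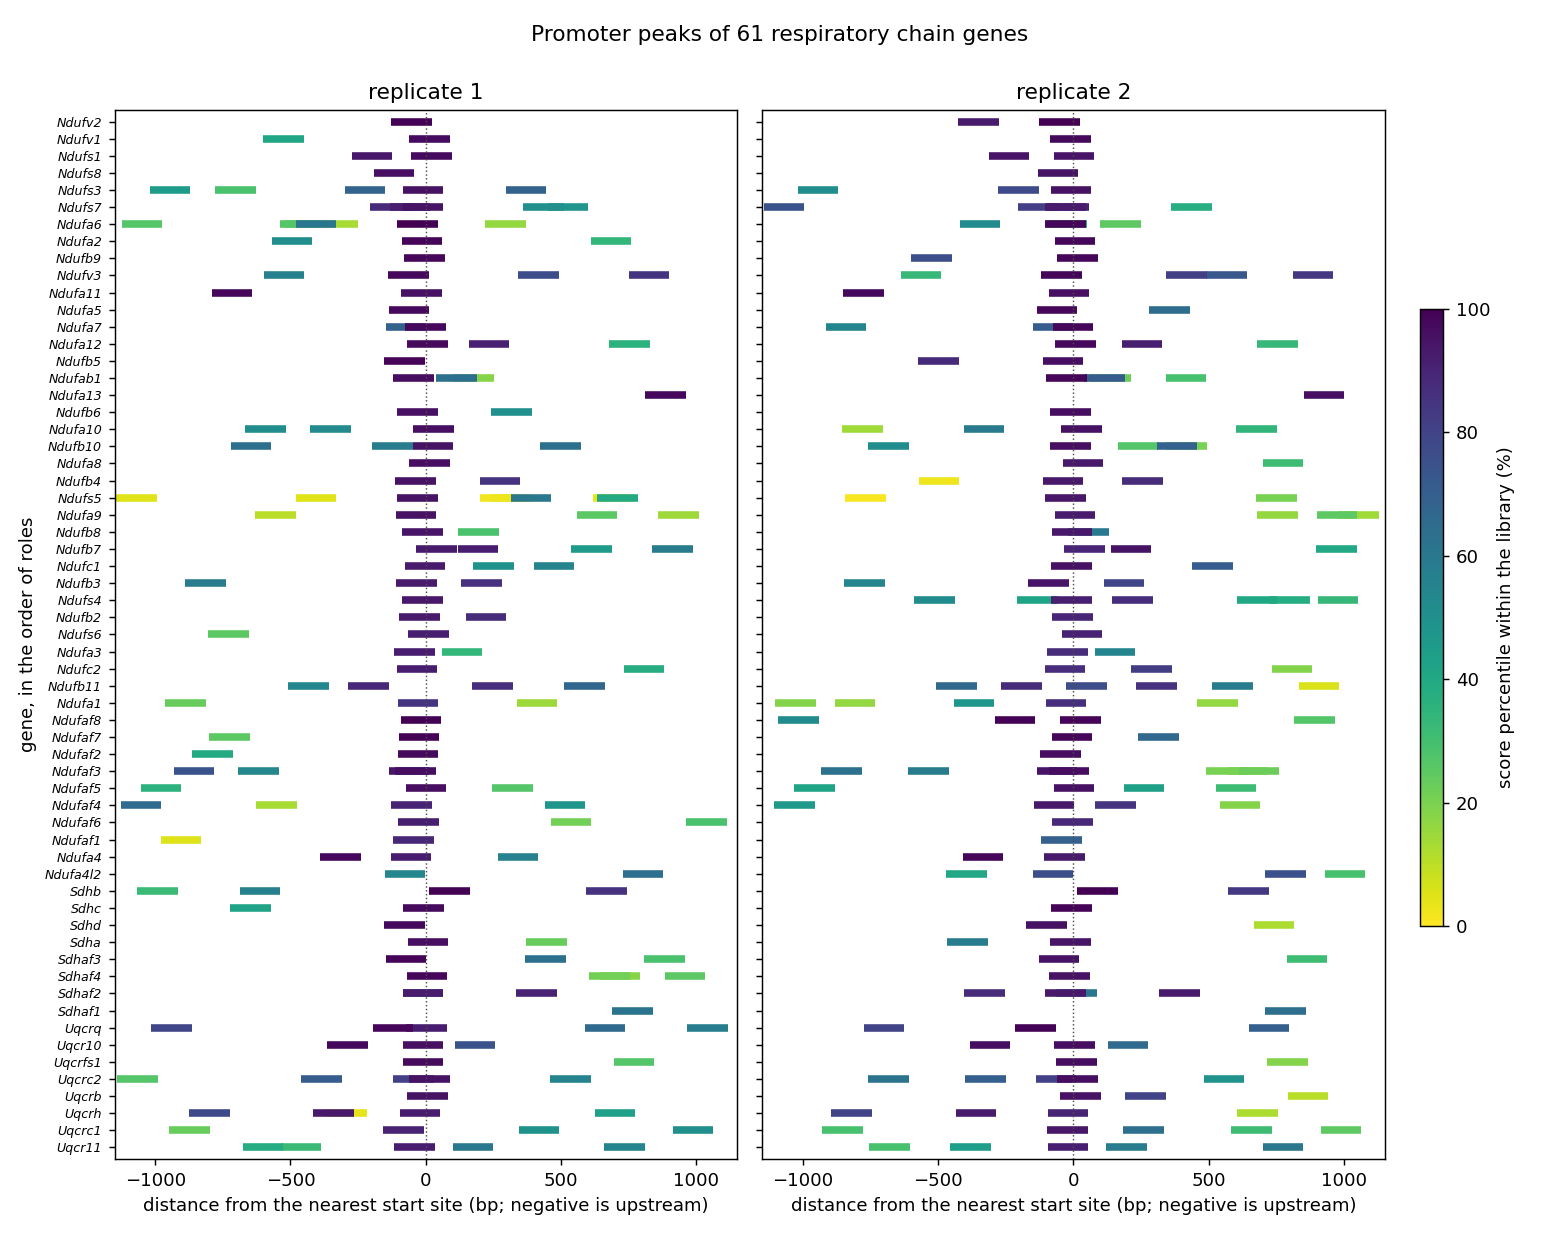
Promoter peaks of 61 members in replicate 1 (left) and replicate 2 (right), placed by the distance of the peak centre from the nearest start site in bp and coloured by score percentile. Bars are the 150 bp peaks; dark bars stack at the start site in most rows, and Ndufa13 and Sdhaf1, with no peak there in either library, are exceptions.

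Most members had more than 1 promoter peak. The promoters held 182 peaks in replicate 1, of which 135 overlapped a peak of replicate 2, and 183 in replicate 2. Exactly 1 peak in each library was found at 3 members (4.84%, against 7.38% of open genes), and 3 or more in each at 25 (40.3%, against 54.8%). The promoter hotspot had a median width of 1302 bp and 1156 bp, against 1309 and 1259 bp. It was widest at Uqcrh, the hinge subunit of complex III, with 3252 and 2514 bp, and narrowest at Ndufs7 with 190 bp in each. The hotspot's deposited −log10 q was at its cap of 100 in both libraries at 61 members (98.4%, against 93.3% of open genes), and Sdhaf1 was the exception.

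Divergent neighbours were common. At 27 of 62 members (43.5%) another gene started on the opposite strand within 1 kb upstream, so that the pair could share a promoter, against 11.0% of all genes and 17.4% of genes with a promoter peak in both libraries. Within CpG deciles 6 to 8 the shares were 43.2% of members and 17.1% of all genes, and within deciles 9 and 10 they were 7 of 14 members and 20.4% of all genes. By role, 3 of 7 core, 11 of 29 accessory and 4 of 8 assembly genes of complex I had such a neighbour, as did 3 of 4 subunit genes of complex II, 1 of 4 of its assembly genes, 4 of 8 genes of complex III, and Ndufa4.

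At 25 of the 27 pairs the best promoter peak of the member was also that of its neighbour, so its score belongs to both genes. Ndufv3 with Wdr4 was an exception. The promoter windows of such pairs overlap by definition, and the same count was not made over all genes with such a neighbour. The distance between the starts had a median of 84 bp, against 106 bp over the 2406 genes with such a neighbour. The closest pairs were Ndufs1 with the translation factor gene Eef1b2 and Ndufb11 with the RNA-binding protein gene Rbm10, both at 3 bp, and Ndufa7 with the ribosomal protein gene Rps28, at 10 bp. Neighbours that also encode mitochondrial proteins were Mrpl36, a mitochondrial ribosomal protein, 51 bp from Ndufs6, and Timm8b, an import chaperone, 98 bp from Sdhd. Ndufb5 shared its best peak with another mitochondrial ribosomal protein gene, Mrpl47, but was not counted as facing it. Uqcrq faced Gdf9, an oocyte growth factor gene, at 192 bp. The shared promoter peak there cannot be assigned to either gene.

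The other pairs of complex I were Ndufs3 with Kbtbd4, Ndufa2 with Ik, Ndufb9 with Tatdn1, Ndufa11 with Vmac, Ndufa5 with Asb15, Ndufa8 with Morn5, Ndufb3 with Fam126b, Ndufa1 with Rnf113a1, Ndufaf8 with Tepsin, Ndufaf7 with Cebpz, Ndufaf2 with the DNA repair gene Ercc8, and Ndufaf5 with Esf1. Those of the other complexes were Ndufa4 with Phf14, Sdha with Ccdc127, Sdhaf2 with Cpsf7, Uqcr10 with Zmat5, Uqcrb with Gm10767 and Uqcrh with Lrrc41.

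Letters of 8 motifs were searched on both strands in the best shared promoter peak of each gene. The comparison is with the 12902 genes that have a shared promoter peak, where a peak shared by neighbouring genes counts for each of them. A match is a run of letters, and binding was not measured.

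The YY1 letters AANATGGCG were in the peak of 10 members (16.1%), against 2.92% of genes. The share was 15.9% against 3.45% within CpG deciles 6 to 8. These letters contain ATGGCG, which can also be a start codon followed by an alanine codon. At 8 members (12.9%, against 1.06% of genes) the ATG of a match was an annotated start codon. Matches with no annotated start codon were at 3 members (4.84%, against 1.91%). In 250 bp before to 50 bp after the 5′ end of the gene record, only 4 members had a match (6.45%, against 2.90% of all genes). Except for Ndufa2, whose sequence is not printed, the sites follow, to show their position relative to start codons. Each is given on the strand of the match, with the letters in capitals.
Ndufs3, chr2:90904634-90904658, minus strand: cactaaggAACATGGCGgcggctgc
Ndufa7, chr17:33824619-33824643, plus strand: gcggaaggAATATGGCGtccgctac
Ndufa9, chr6:126849099-126849123, minus strand: tgtgggagAAGATGGCGgccgccgt
Ndufc1, chr3:51408917-51408941, minus strand: tgcggaacAAGATGGCGccgtccgt
Ndufs4, chr13:114388043-114388067, minus strand: cctacaggAAGATGGCGgcggtctc
Ndufb11, chrX:20617814-20617838, minus strand: accaacacAAAATGGCGacgagaag
Ndufaf8, chr11:120098936-120098960, plus strand: cagggcccAAGATGGCGgcgccctc
Uqcrb, chr13:66905298-66905322, minus strand: ctcaggtcAAAATGGCGggccgatc
Uqcrh, chr4:116075352-116075376, plus strand: acctcttcAAGATGGCGgcccgcgg
Uqcrh, chr4:116075398-116075422, plus strand: acctccccAAGATGGCGgcgcccga
The letters lie over the member's own start codon at Ndufs3, Ndufa7, Ndufa9, Ndufc1, Ndufs4 and Uqcrb, and also at Ndufa2. At Uqcrh both matches lie on the other strand, and 1 of them is at the start codon of its neighbour Lrrc41. At Ndufb11 and Ndufaf8 they are at none. Ndufs4 and Ndufs3 encode complex I subunits on the peripheral arm, Ndufa9 a subunit at the joint of the arms, Ndufa7 and Ndufc1 other accessory subunits, and Uqcrb a ubiquinone-binding subunit of complex III.

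The NRF1 letters GCGCANGCG were in the peak of 13 of 62 members, against 10.9% of genes, and of 22.7% against 10.7% within CpG deciles 6 to 8. The members were the core gene Ndufs7, the accessory genes Ndufa8, Ndufb4, Ndufb7, Ndufb10, Ndufs5 and Ndufs6, the assembly genes Ndufaf4, Ndufaf5 and Sdhaf4, the complex II genes Sdha and Sdhd, and Uqcr11. In the window around the 5′ end it was again 13 members, against 8.28% of all genes. Sdha had the most non-overlapping matches, 3 on the gene's strand within 1 peak, which are shown with the letters in capitals.
Sdha, chr13:74350234-74350258, minus strand: gactcggtGCGCAAGCGcagtctgt
Sdha, chr13:74350279-74350303, minus strand: ggcgtgttGCGCAGGCGcagaatct
Sdha, chr13:74350322-74350346, minus strand: tttacaggGCGCAGGCGcaccacca
Their positions relative to the nearest start site were -7, -11 and -54 bp.

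The ERR letters TNAAGGTCA were in the peak of 2 members, Ndufb4 and Sdhaf1 (3.23%), against 0.217% of genes. Counts this small are given as sites only.
Ndufb4, chr16:37654409-37654433, minus strand: cctgagccTGAAGGTCAgactcgag
Sdhaf1, chr7:30323120-30323144, minus strand: aatcagctTAAAGGTCAtacagtac
The Ndufb4 site lay 32 bp and the Sdhaf1 site 763 bp downstream of the GENCODE start site. The peak that holds the Sdhaf1 site lay 756 and 736 bp upstream of the RefSeq 5′ end of that gene. Ndufb4, an accessory subunit, held letters of 4 motifs (NRF1, SP/KLF, CCAAT and ERR) in its peak, the most of any member.

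The ETS letters CCGGAAG were in the peaks of 13 of 62 members (against 14.7% of genes), but within CpG deciles 6 to 8 the shares were 18.2% and 17.3%. The cyclic AMP response element TGACGTCA was in 4 (6.45%, against 3.13%), and within those deciles the shares were 4.55% and 3.28%. For 3 of the 8 motifs the share was lower among members. GGGGCGG was at 16 members (25.8%, against 35.1%), CCAAT at 13 of 62 (against 29.0%) and CACGTG at 3 (4.84%, against 7.09%). For GGGGCGG the order turned in the window around the 5′ end, with 33.9% of members and 28.5% of all genes. None of the 8 motifs was in the peak of 13 of 62 members (against 29.8% of genes), among them Ndufv2 and Ndufv1 of the core.

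**Figure D4:**
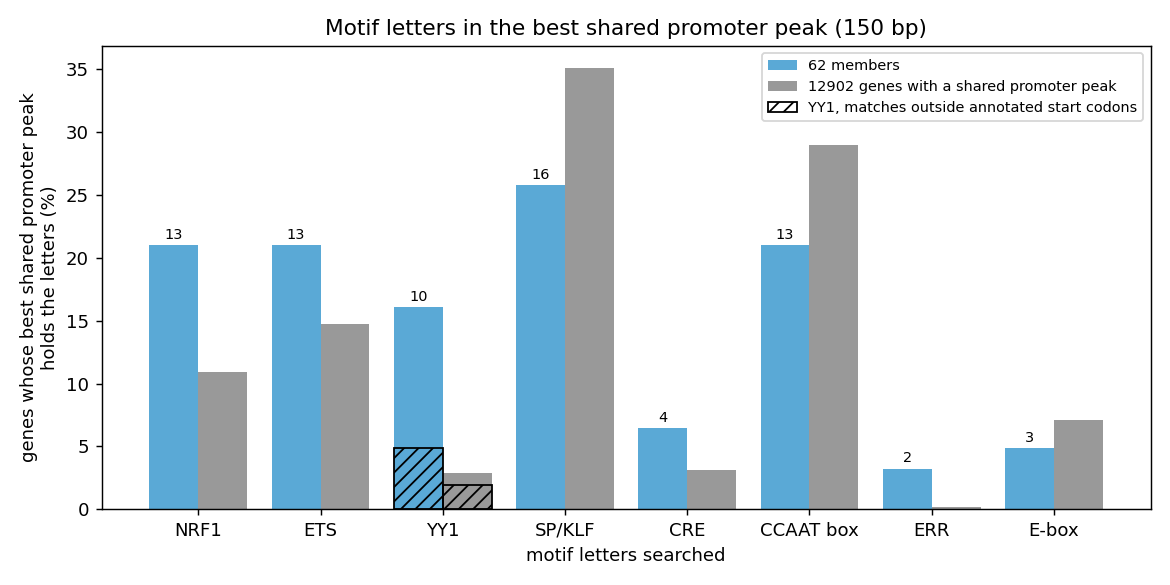
Percentage of the 62 members and of the 12902 genes with a shared promoter peak whose best shared peak holds the letters of each motif, with the number of members above the bars. Hatched bars are YY1 matches whose ATG is at no annotated start codon, 3 members.

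By median and quartiles, distal peaks near the members were slightly fewer than near open genes. Within 50 kb of a start site, members had a median of 6.5 shared distal peaks, with a range of 0 to 20. The median was 5 over all genes and 7 over genes with a promoter peak in both libraries. The central 50% of members had 2.25 to 10, against 4 to 12 of the genes with a promoter peak. With all distal peaks of a library counted, shared or not, members had a median of 9 in each library, against 11 in each. No shared distal peak was found at 1 member, Uqcrb (1.61%), against 20.9% of all genes, a share that was not counted over open genes alone. Members with more genes within 50 kb had somewhat more, with medians of 4, 7, 7 and 8 for 1 to 2, 3 to 4, 5 to 7, and 8 or more genes in that window, against 4, 5, 6 and 6 over all genes. Within those same windows, genes with a promoter peak had medians of 7, 7, 8 and 7.

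The members with most shared distal peaks were Sdhb and Ndufb9 with 20 each, Ndufaf8 and Ndufa4l2 with 17, Ndufc1 and Uqcr11 with 16, and Ndufa11 and Sdhc with 15. In all, 17 members had 10 or more and 11 had 1, among them Ndufa6, whose promoter peak was at the ceiling of the score in replicate 1. Sdhb, strongest at its promoter, had 8 of its 20 within its own gene. The strongest of the 20, chr4:141008116-141008265, lay 46788 bp downstream of the nearest Sdhb start site and scored 145 and 138 (percentiles 99.5 and 98.1). At Ndufa4l2, 10 shared peaks lay 1.36 to 6.48 kb upstream of the GENCODE start, and they include the peaks by its RefSeq end.

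Around the members there were 426 distinct shared distal peaks, and 4 of them were near more than 1 member. By their centre, 41.1% were in introns, 47.2% were intergenic and 11.7% were in exons, against 45.4%, 47.1% and 7.56% of all 82318 shared distal peaks. Both libraries placed 24 of the 426 (5.63%) in the top 10% of scores, against 4.30%. The letters of the CTCF motif were in 23 (5.40%, against 4.22%), and TGANTCA, the AP-1 motif, was in 46 (10.8%, against 14.7%).

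Ndufs5, an accessory subunit, had 68 distal peaks in replicate 1 and 8 in replicate 2, of which 7 were shared. Every other member differed by 11 or fewer between the libraries, the next widest being Uqcr10 with 13 and 24 and Ndufc2 with 18 and 10. The replicate 1 count at Ndufs5 rests on that library alone.

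**Figure D5:**
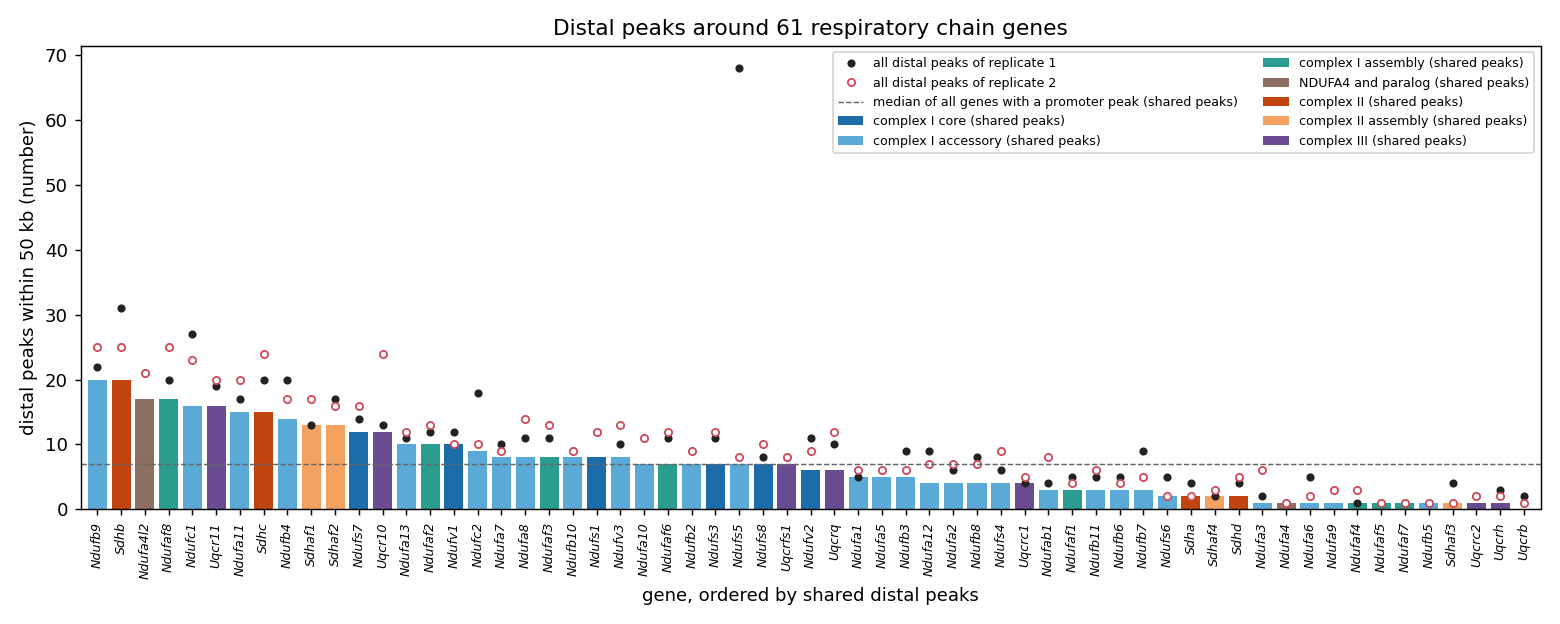
Distal peaks within 50 kb of 61 members. Bars count peaks shared by both libraries, coloured by role; filled and open points count all distal peaks of replicate 1 and replicate 2; the dashed line is the median of shared peaks, 7, over all genes with a promoter peak. Ndufs5 is the point at 68 in replicate 1.

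Other genes of the pathway that carry different symbols were open alike. All 7 matched assembly factors of complex I with other names had a promoter peak in both libraries, as had 7 of 7 further genes of complex III, 14 of 14 genes of ubiquinone, cytochrome c and the enzymes that feed them, 10 of 10 general subunits of complex IV and 15 of 15 matched subunits of complex V. Over all genes the share was 59.2%. All of these pathway genes but Atp5j2 (CpG decile 3) and Atp5o (decile 4) lie in deciles 5 to 10. There the share of all genes was 60.5% to 91.9%, and the part of CpG content was not tested. Cox4i1, a general complex IV subunit, scored 148 in both libraries, and Cyc1, which carries the heme of cytochrome c1, scored 138 and 136. Of 8 genes for forms of complex IV subunits or cytochrome c known from muscle, testis or lung, 4 had one, against 59.2% of all genes. These 8 lie in CpG deciles 3 to 5, where the share of all genes was 28.6% to 60.5%, so their count is near the background. Cox6b2, Cox8b, Cox8c and Cyct, the gene of testis cytochrome c, had no promoter peak in either library. The 4 others had percentiles of 23.3 to 88.5 in replicate 1 and 7 to 81.0 in replicate 2.

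Of 13 regulators, 12 had a promoter peak in both libraries, against 59.2% of all genes. These 12 lie in CpG deciles 7 to 10, where the share of all genes was 84.7% to 91.9%. The regulator without a peak, Ppargc1a, lies in decile 3, where the share was 28.6%. The count is therefore near the background. Nrf1, the gene of the factor whose letters are described above, scored 142 and 143, and Yy1 scored 144 and 141. Esrra, which encodes an estrogen-related receptor, scored 134 and 136, and Gabpa, the DNA-binding part of GABP, 137 in each. The coactivator gene Ppargc1b scored 130 and 131 and its relative Pprc1 135 and 139. Ppargc1a, which encodes the related coactivator PGC-1alpha, had no promoter peak in either library. It had no shared distal peak within 50 kb either, as was so for 20.9% of all genes.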

How the data were processed

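DNase-seq was measured in 2 biological replicates of MN1, 1 library each. Per the labels the assembly is mm10; which aligner and caller made the lists is not given in the sources used here. For each library the authors deposited a peak list with a score per peak, and a hotspot list with −log10 q-values (lowest 1.30, cap 100). No scale of the score is stated, so scores were only ranked within a list. Depth is unknown, and no interval or p-value was computed.

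Repeated entries were removed (43 and 20), and the 19 autosomes, X and Y were used. Genes were those of GENCODE M21 (21911 symbols, 93504 start sites, any transcript of a protein-coding gene). A peak belonged to a promoter, or was shared, with an overlap of 1 bp or more; distal peaks were counted on replicate 1 by their centre. CpG observed/expected was taken over 1 kb at the 5′ end of the gene record. RefSeq 5′ ends came from GRCm38.p6, and all 62 members matched. Coa1 and Atp5pb of the pathway lists were not matched by symbol. Python 3.11.15, pandas 2.3.3, NumPy 2.4.6 and matplotlib 3.10.9 were used, and the counting was tested on simulated peaks.

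The members, lists, motifs and alternatives were chosen with earlier results of these data known. Named genes were, by rule, the highest and lowest of each role, the 5 widest gaps between libraries, the 8 with most shared distal peaks and those with none, members with a divergent neighbour, and members with NRF1, YY1 or ERR letters. Other named genes, the RefSeq comparison, the start codons and the distal motifs were chosen after values were seen. Alternatives covered windows, start sites, overlap, scores and each library alone. Values of 1 member and of 1 neighbouring gene are not reported here by name; they are in the counts.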

Additional observations from a re-analysis of the deposited data

Results flagged for a closer look

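The mitochondrial chromosome encodes further subunits of complexes I and III and was left out of the comparisons. It had 17 peaks and 17 hotspots in replicate 2 and 0 of each in replicate 1. It was flagged because these data were not used in any comparison and differ between the libraries. The peaks scored 124 to 150 and lay over 4 of the 7 mitochondrial complex I genes (mt-Nd2, mt-Nd4, mt-Nd5 and mt-Nd6), over mt-Cytb, the complex III subunit, and over mt-Co1.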

How the results depend on the processing

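All 62 members had a promoter peak in both libraries under each alternative but 1: with 500 bp windows it was 60, without Ndufa13 and Sdhaf1. With either library alone the count was 62. The median number of shared distal peaks, 6.5, moved to 2 within 25 kb, 12 within 100 kb, 2 with only peaks above the median score and 4 outside 2.5 kb promoters, where all genes had 2, 10, 2 and 3. Without replicate 1 and without replicate 2, all distal peaks of the remaining library were counted, shared or not. The medians were then 9 and 9, against 7 and 7 over all genes and 11 and 11 over genes with a promoter peak in both libraries. The median percentile, 95.8, was 95.5 without replicate 1 and 96.3 without replicate 2. The YY1 count moved from 10 to 4 in the window around the 5′ end, where the share of all genes was 2.90%. The CCAAT count moved from 13 to 20 (32.3%) there and in every shared promoter peak. The share over genes moved with it, from 29.0% to 39.0% and 44.5%, and stayed above that of members. No paired analysis was possible because there is 1 group. Of these alternatives, 3 were added after the data were seen. With 2 libraries of unknown depth, a missing peak does not show closed chromatin.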
